A study of Homo sapiens with 6 samples.

Results

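The miR-130 seed family (miR-130a, miR-130b, miR-301, miR-301b and miR-454) and the miR-148 seed family (miR-148a, miR-148b and miR-152) were followed member by member in HEK-293FT cells after knockdown of TruB1. HEK-293FT is a human embryonic kidney line that carries the SV40 large T antigen. Members were all assays on the card with these names, which gave 8 of 377 human miRNA assays, 5 in the first family and 3 in the second. The assay named miR-301 targets miR-301a-3p. There were 3 control samples and 3 samples treated with siRNA against TruB1, a pseudouridine synthase of transfer RNA. All 6 came from the same line under the same culture, with siRNAs delivered by lipid transfection. What the control cells received, the siRNA sequences and the time of harvest are not given in the sources used here. Titles carry a series number from 1 to 3 that is shared by 1 control and 1 knockdown sample. Nothing in the labels says whether the series were separate cultures, so p-values measure only the spread between these samples, which may be technical.

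Each value comes from 1 well of a TaqMan card, run for 40 cycles on cDNA from 1000 ng of total RNA. The threshold cycle (Ct) falls as template rises. The deposited level is the ratio of an assay to U6 small nuclear RNA, given here as log2, so that 1 unit stands for a 2-fold difference if every cycle doubles the product. Between 188 and 226 assays had a Ct under 35 in a sample. The mean Ct of U6 ran from 12.2 to 15.4 cycles, was lowest in both samples of series 3, and came from 2 to 4 wells that spanned up to 2.77 cycles. All 11 miRNAs listed as typical of this line were under Ct 35 in all 6 samples. Of the 5 blood markers on the card 0 were, but only 1 was undetermined in all 6, and the lowest Ct among them was 29.5. The liver marker miR-122 was undetermined in all 6. The muscle marker miR-133a (1 of 5 on the card) and the neuronal marker miR-9 were under Ct 35 in every sample. Neuronal markers were looked up by exact name, which found 1 of the 3 listed. Assays named miR-124a and miR-128a are also on the card. Both met the rule for testing, a Ct under 35 in at least 3 samples. In bulk RNA, fewer cells holding a miRNA and less of it per cell cannot be told apart. TruB1 itself was not analysed here, and the strength of the knockdown is unknown.

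A mature miRNA guides an Argonaute protein to messenger RNAs that pair with its seed, bases 2 to 8 from the 5′ end, and members of a seed family therefore share most of their predicted targets. The miR-130 family is known for targets in growth control and TGF-β signalling. The miR-148 family is known for targeting the DNA methyltransferase DNMT1 and is often reduced in tumours. In each hairpin the assayed strand is the 3′ arm.

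The deposited target sequences of the 8 assays are shown because the families are defined by them. Capitals mark the seed.
miR-130a: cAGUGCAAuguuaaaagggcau
miR-130b: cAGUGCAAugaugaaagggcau
miR-301: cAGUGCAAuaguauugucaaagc
miR-301b: cAGUGCAAugauauugucaaagc
miR-454: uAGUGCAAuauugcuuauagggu
miR-148a: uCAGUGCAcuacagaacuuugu
miR-148b: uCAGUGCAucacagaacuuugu
miR-152: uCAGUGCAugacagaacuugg

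The seed AGUGCAA was carried by 5 assays of the card and the seed CAGUGCA by 3, which are exactly the members. Both hold the letters GUGCA, which begin at base 3 in the miR-130 family and at base 4 in the miR-148 family, so the families read the same core in registers 1 base apart. Counted from 1 at the 5′ end, miR-130b differs from miR-130a at 2 bases (U11A and A13G), and miR-301b differs from miR-301 at 2 bases (A10G and G11A). miR-148b differs from miR-148a at 2 bases (C9U and U10C). miR-152, compared over its 21 bases, differs from miR-148b at 2 bases (C10G and U20G) and from miR-148a at 3. The most distant pairs of a family were miR-454 with miR-130a and with miR-130b, at 12 of 22 bases each. How far an assay also detects its near neighbour was not tested.

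The deposited sequences of 7 members were identical to the mature entries of RefSeq (GRCh38.p14), and that of miR-130a was placed within its RefSeq hairpin. miR-301b lies at chr22:21653025-21653047 and miR-130b at chr22:21653354-21653375, both on the plus strand with 306 bases between them, inside the transcribed pseudogene LOC107985532. miR-454 at chr17:59137787-59137809 and miR-301a at chr17:59151149-59151171 lie on the minus strand, 13339 bases apart, within the span of the protein-coding gene SKA2. The remaining members stand alone. miR-130a is at chr11:57641252-57641273 on the plus strand within the long noncoding RNA gene MIR130AHG. miR-148a is at chr7:25949922-25949943 on the minus strand within the noncoding gene LOC105375199. miR-148b is at chr12:54337278-54337299 on the plus strand within COPZ1, and miR-152 at chr17:48037174-48037194 on the minus strand within COPZ2. COPZ1 and COPZ2 encode paralogous subunits of the COPI vesicle coat. Whether these positions are exonic or intronic was not analysed here.

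Levels spanned a wide range in control cells and knockdown cells alike. By mean level, miR-454 was the highest member and miR-130a the lowest. A level also holds the efficiency of each assay's reverse transcription and amplification, so the order describes the assays as run. hsa-miR-454 stood at -6.77, -7.39 and -7.09 (log2 ratio to U6) in the control samples of series 1, 2 and 3, and at -6.69, -7.70 and -8.35 in the knockdown samples in the same order. It ranked 11 by mean level among the 161 assays determined in all 6 samples. Its knockdown values overlapped those of control. Relative to U6 it varied least among the members, with a range of 1.66 over the 6 samples. Its raw Ct, by contrast, ran from 19.2 to 23.2 cycles, the widest raw range of the members.

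The partner encoded beside it, hsa-miR-301, stood at -10.25, -11.03 and -13.42 in control and at -10.80, -11.78 and -13.67 in knockdown. Both samples of series 3 were the lowest of their group, by more than any difference between control and knockdown. hsa-miR-130b stood at -9.97, -11.58 and -12.55 in control and at -9.40, -10.77 and -13.34 in knockdown, so its highest and its lowest value both came from knockdown cells. Its cluster partner hsa-miR-301b stood at -11.59, -12.94 and -14.28 in control and at -11.98, -12.14 and -15.84 in knockdown. For this miRNA too, series 3 was lowest in both groups.

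hsa-miR-130a was near the limit of the assay, with Ct values from 30.6 to 34.1 and no determined value in control sample 2. It stood at -15.87 and -19.64 in the controls of series 1 and 3, and at -16.34, -15.66 and -20.90 after knockdown in series 1, 2 and 3. The undetermined well was treated as missing, so its comparison rests on series 1 and 3.

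In the miR-148 family, hsa-miR-148a was the most abundant member relative to U6. It stood at -10.24, -12.32 and -12.73 in control and at -9.03, -11.54 and -14.29 in knockdown. Relative to U6 its range of 5.26 was the widest of the 8 members. hsa-miR-148b was much lower, at -13.46, -14.85 and -18.15 in control and at -14.51, -15.74 and -18.19 in knockdown. hsa-miR-152 stood at -13.40, -15.43 and -16.94 in control and at -13.50, -14.22 and -16.05 in knockdown. As for miR-301, miR-130b and miR-301b, the samples of series 3 were the lowest of their groups, and control and knockdown overlapped. U6 had a mean Ct of 14.7, 14.0 and 12.2 in the controls of series 1, 2 and 3. The median Ct over assays determined in all samples was 26.3, 26.7 and 26.5 there. After knockdown, U6 was at 14.9, 15.4 and 13.2 cycles and that median at 26.5, 28.0 and 28.1. Relative to U6, series 3 was thus lowest in both groups for the card as a whole, not only for the members. Among the 161 assays determined in all samples, 0 (0%) had control and knockdown values that did not overlap.

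**Figure D1:**
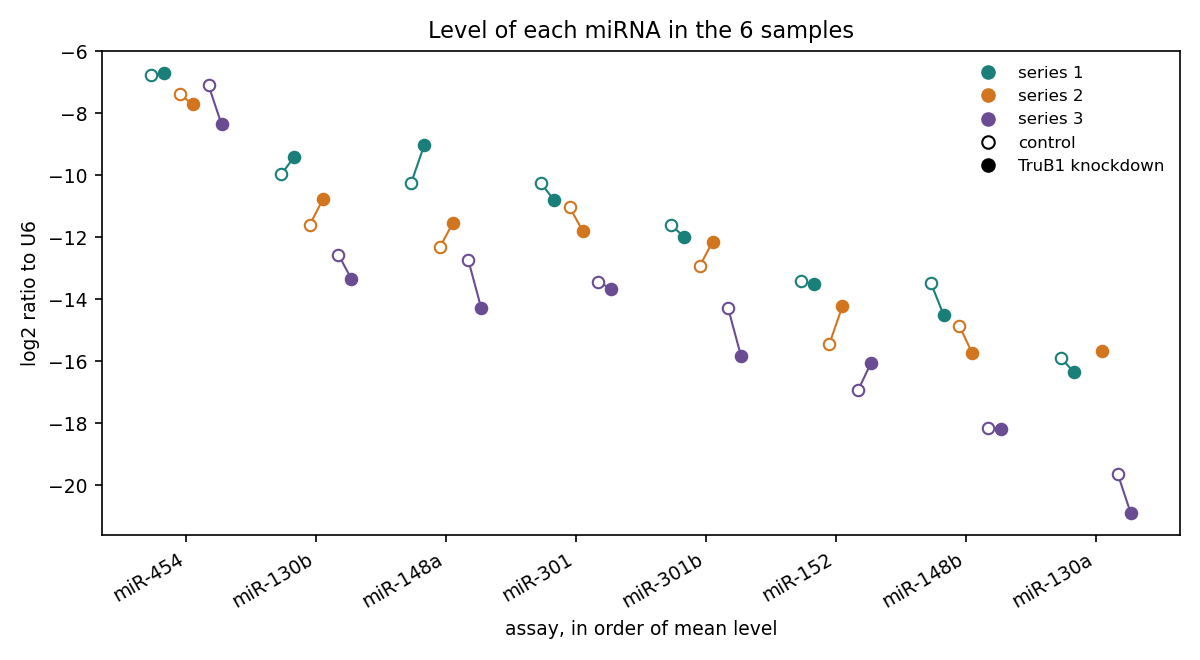
Level of each member as log2 ratio to U6 (vertical axis) in control (open circles) and TruB1 knockdown samples (filled circles), joined within a series number (colour). Levels ran from -6.69 for miR-454 to -20.90 for miR-130a, and the points of series 3 are the lowest of their group for every member but miR-454. The mean Ct of U6 was also lowest in series 3, and the card as a whole was lowest there relative to U6. The control point of miR-130a in series 2 is undetermined.

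Neighbours in this order were compared within each sample, where U6 cancels. miR-454 exceeded miR-130b by 3.94 ± 1.12 (SD, n = 6 samples), and was higher in 6 of 6. miR-130b and miR-148a did not differ beyond their spread (0.42 ± 0.49), nor did miR-148a and miR-301 (0.13 ± 1.06). miR-301 exceeded miR-301b by 1.30 ± 0.67 and miR-301b exceeded miR-152 by 1.80 ± 0.88, each in 6 of 6 samples. The difference of miR-152 and miR-148b was again within its spread (0.89 ± 0.997). miR-148b exceeded miR-130a by 1.67 ± 1.09 over the 5 samples with both values, and was higher in 4 of 5. Leaving out series 1 swapped miR-148a and miR-301, the neighbours that lay closest.

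No member passed the test of knockdown against control. The comparison used limma with the series number as a block on 189 assays, adjusted by the Benjamini-Hochberg method. Of these assays 0 (0%) passed an adjusted p of 0.05, with a smallest adjusted p of 0.243, and 10 (5.29%) had an unadjusted p under 0.05. All 8 members were tested, 0 passed, and 0 had an unadjusted p under 0.05. Their smallest adjusted p was 0.971. Fitted changes were lower in knockdown for 5 members and higher for 3, beside 63.5% lower among all assays tested, so the members' split lay close to the background. Without series 3, 6 of 175 assays (3.43%) passed an adjusted p of 0.05, 0 of them members.

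Within the miR-130 family 4 of 5 fitted changes were lower, with a median log2 change of -0.50 against -0.13 over all assays tested. Without series 3 the median was 0.04 over the 4 members then tested, miR-130a not among them, and 0.06 over all assays. Relative to the mean Ct of assays under Ct 35 in all 6 samples, 94 of 189 assays were lower in place of 120, and the members still divided into 5 lower and 3 higher. On raw Ct the median over all assays was -1.02, and all 8 members were lower, beside 179 of 189 assays tested (94.7%). The fitted change of miR-301 was -0.52 (SE 0.42, 95% confidence interval -1.50 to 0.47). It was the steadiest of the family, at -0.55, -0.76 and -0.24 in series 1, 2 and 3. In 3 of 3 series the level was lower, which also held for 31 of the 161 assays with all pairs (19.3%). No member was higher in 3 of 3, beside 7 of those assays (4.35%). miR-454 changed sign between series, with 0.08, -0.32 and -1.25 and a fitted value of -0.50 (SE 0.46, interval -1.58 to 0.59).

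Changes of the pair on chromosome 22 ran in both directions. miR-130b was at 0.57, 0.81 and -0.79 in series 1, 2 and 3, a fitted change of 0.20 (SE 0.49, interval -0.95 to 1.35). miR-301b was at -0.39, 0.80 and -1.55, a fitted change of -0.38 (SE 0.55, interval -1.67 to 0.90). Both were higher in series 2 and lower in series 3, and parted in series 1. For miR-130a the changes of series 1 and 3 were -0.46 and -1.26, with a fitted value of -0.86 (SE 0.57, interval -2.24 to 0.51). That direction rests on leaving the undetermined well out. With the well set to Ct 40 the fitted change was 2.88, and without the block, where knockdown sample 2 enters unpaired, it was 0.12.

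The miR-148 family held the widest contrast between close relatives. miR-148a was at 1.22, 0.78 and -1.55 in series 1, 2 and 3, with a fitted change of 0.15 (SE 0.61, interval -1.29 to 1.59). In linear terms the knockdown level was 2.32, 1.72 and 0.340 times that of control. miR-148b, which differs from it at 2 bases, was at -1.06, -0.89 and -0.04, lower in 3 of 3 series, with a fitted change of -0.66 (SE 0.44, interval -1.70 to 0.38). miR-152 was at -0.10, 1.22 and 0.89, with a fitted change of 0.67 (SE 0.46, interval -0.42 to 1.75), the highest of the 8. The median of the 3 fitted changes was 0.15. None of these intervals excludes 0. Each reaches more than 1 log2 unit to either side of the fitted change. With intervals of this width, that of a fitted 2-fold change of these 3 miRNAs would still include 0. Without series 1 the family median was -0.39.

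**Figure D2:**
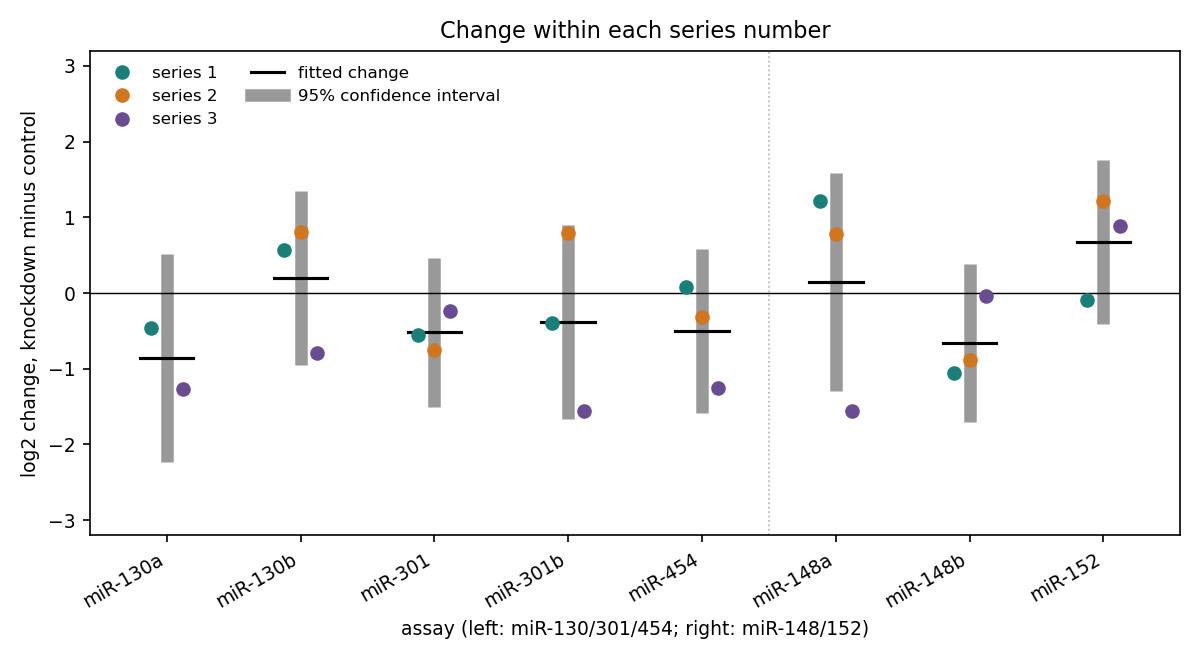
Log2 change relative to U6, knockdown minus control, for each member in series 1, 2 and 3 (coloured points), with the fitted change (black bar) and its 95% confidence interval (grey). Every interval includes 0, and the series disagree in sign for 5 of the 7 members with 3 pairs, while miR-301 and miR-148b were lower in all 3.

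The card as a whole was uneven between series too. The median change over all assays tested was -0.21 in series 1, 0.32 in series 2 and -0.54 in series 3. Against these medians 4 of 8 members lay above in series 1, 4 of 7 in series 2 and 3 of 8 in series 3. miR-152 was above the median in 3 of 3 series, by 0.11, 0.90 and 1.43. No other member with 3 pairs kept 1 side of the median in all of them, and miR-130a was below it in both of its pairs (-0.25 and -0.72). The share of all assays that kept 1 side was not counted, so miR-152 is not shown to be unusual in this. The spread of the 3 changes differed widely between members. Its SD was 0.258 for miR-301, smaller than for all but 17 of 161 assays, and 1.49 for miR-148a, larger than for 140 of them. The median SD over those assays was 0.681.

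Raw cycles show the same members without a reference. Over the 161 assays determined throughout, the median Ct was later in knockdown by 0.317, 1.15 and 1.66 cycles in series 1, 2 and 3, and U6 was later by 0.142, 1.48 and 1.10 cycles. miR-152 did not follow this course. Its Ct was 28.1, 29.4 and 29.1 in the controls of series 1, 2 and 3 and 28.4, 29.7 and 29.3 after knockdown, later by 0.240, 0.262 and 0.210 cycles. The SD of these 3 differences, 0.026 cycles, was the smallest of the 161 assays, whose median SD was 0.876. This feature of miR-152 was singled out after its values were seen. miR-148a moved most among the members, from 1.07 cycles earlier in knockdown in series 1 (-1.07) to 2.65 cycles later in series 3, and the SD was 1.86. miR-148b was later by 1.20, 2.37 and 1.14 cycles.

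**Figure D3:**
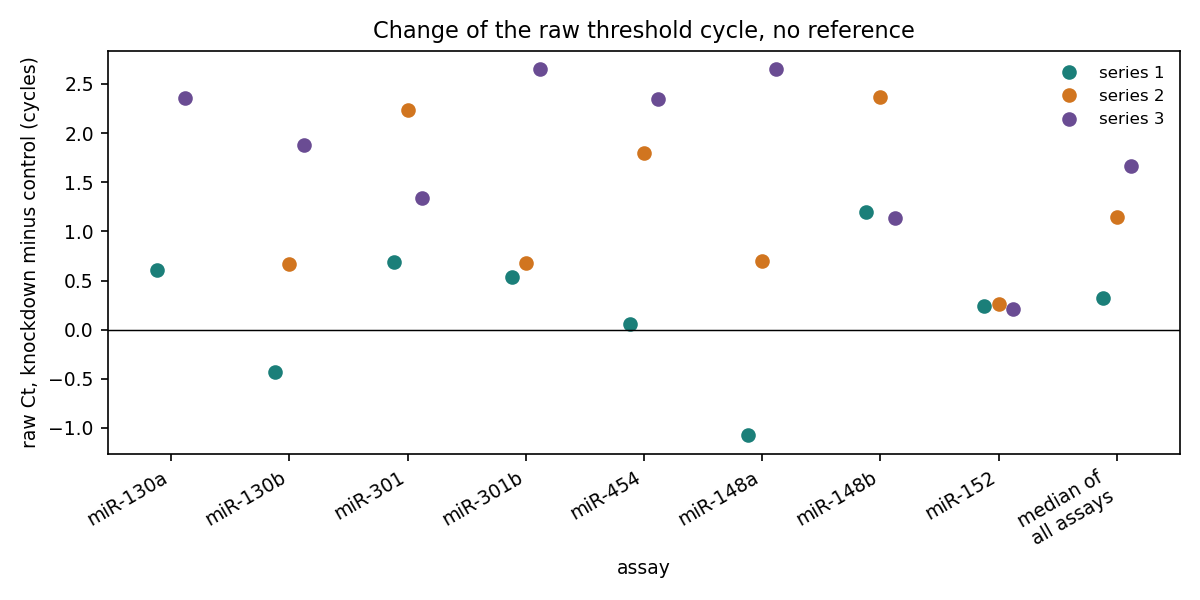
Difference in raw Ct, knockdown minus control, in cycles, for each member and for the median of the 161 assays determined in all samples, in series 1, 2 and 3 (colour); a positive value means less template in knockdown. The points of miR-152 coincide between 0.210 and 0.262 cycles, while those of miR-148a run from -1.07 to 2.65.

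Differences between 2 members of the same sample are free of U6, and 6 pairs of relatives were compared this way. Exact two-sided sign-flip tests over 3 series cannot give a p under 0.25, so they cannot pass 0.05. The cluster partners miR-130b and miR-301b differed by 1.62, 1.35 and 1.73 in the controls of series 1, 2 and 3 and by 2.59, 1.36 and 2.50 after knockdown, with miR-130b the higher in all 6. The difference was larger in knockdown in 3 of 3 series, by 0.58 ± 0.50 (SD, n = 3; exact sign-flip p = 0.25, adjusted p = 0.625 over the 5 pairs with 3 series). In series 2 the increase was only 0.01.

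The partners on chromosome 17 showed no such direction. miR-454 exceeded miR-301 by 3.48, 3.64 and 6.33 in control and by 4.11, 4.08 and 5.32 in knockdown. Both samples of series 3 stood apart from the other 4, and the mean change of 0.02 ± 0.90 (SD, n = 3) was far inside its spread. miR-130b exceeded miR-130a by 5.91 and 7.08 in the controls of series 1 and 3 and by 6.94, 4.88 and 7.56 after knockdown in series 1, 2 and 3, a ratio that varied between series more than between conditions.

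In the miR-148 family the ratio of miR-152 to miR-148b moved 1 way in every series. Their log2 difference was 0.05, -0.58 and 1.22 in the controls of series 1, 2 and 3 and 1.01, 1.52 and 2.15 after knockdown. The control and knockdown values overlap, since control sample 3 lies above knockdown sample 1. Within series the difference rose by 0.96, 2.10 and 0.93, on average 1.33 ± 0.67 (SD, n = 3), which is larger than its spread (exact sign-flip p = 0.25, the smallest possible; adjusted p = 0.625). By contrast, miR-148a exceeded miR-148b by 3.21, 2.53 and 5.42 in control and by 5.49, 4.20 and 3.91 in knockdown. That change, 0.81 ± 2.04 (SD, n = 3), was smaller than its spread, with series 3 opposite in sign to series 1 and 2 (sign-flip p = 0.5, exact). It was 0.08 without series 1 and 1.97 without series 3. The difference of miR-148a and miR-152 changed by 1.31, -0.43 and -2.44, with a mean of -0.52 ± 1.88 (SD, n = 3; exact sign-flip p = 0.75). Adjusted over the 5 pairs, these were 0.833 and 0.938.

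**Figure D4:**
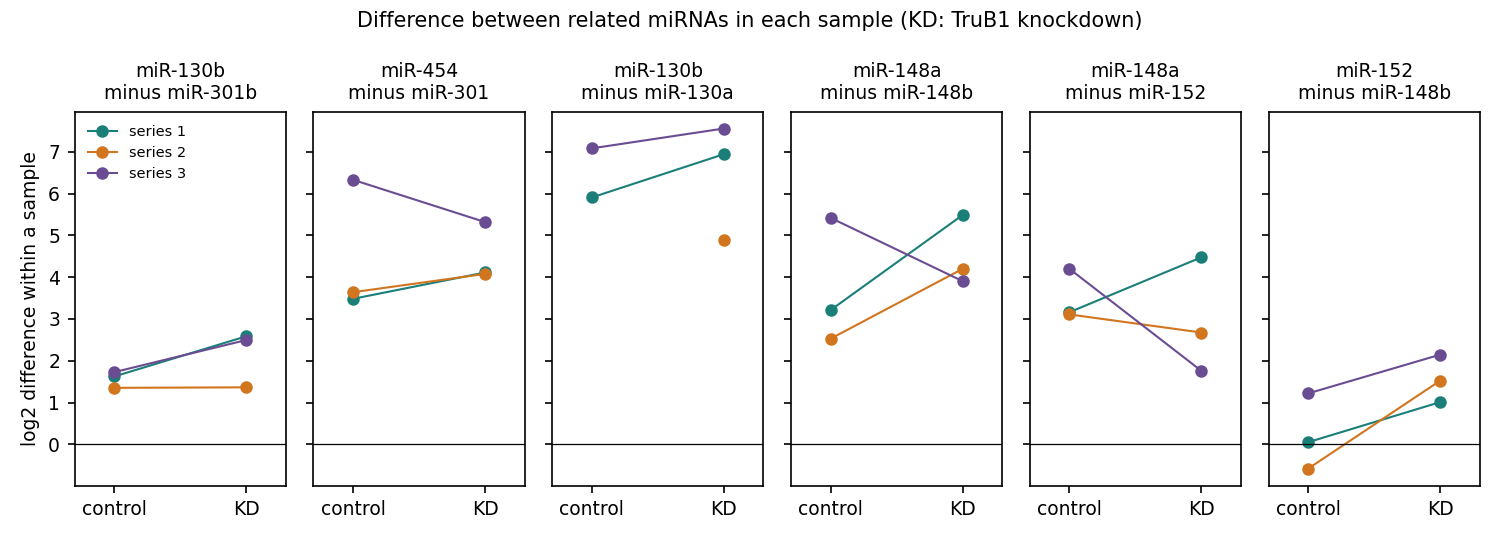
Log2 difference between 2 related miRNAs of the same sample (vertical axis) in control and TruB1 knockdown, joined within a series number (colour). The lines of miR-152 minus miR-148b and of miR-130b minus miR-301b rise in all 3 series, the latter by 0.01 in series 2, while those of miR-148a with miR-148b or miR-152 cross.

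Family levels were averaged over members determined in every sample, which leaves out miR-130a, the lowest of its family by mean level. On that average the miR-130 family (4 members) stood at -10.74 ± 1.10 (SD, n = 3) in control and -11.04 ± 1.59 in knockdown. The miR-148 family (3 members) stood at -14.17 ± 1.79 and -14.12 ± 1.93. Within series the first family's mean changed by -0.07, 0.13 and -0.96 and that of the second by 0.02, 0.37 and -0.24. The first family exceeded the second by 2.72, 3.47 and 4.10 in control and by 2.63, 3.23 and 3.38 in knockdown. This difference was smaller in knockdown in 3 of 3 series, with a mean change of -0.35 (SD 0.33, n = 3). It was not tested, and 3 series of the same sign cannot give an exact sign-flip p under 0.25.

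Members of a family did not stand out as moving in parallel across the 6 samples. Likeness was taken as the SD of the within-sample Ct difference, which is small for assays that move in parallel. Against the mean of the other members of its family, the SD was 0.565 cycles for miR-130b, 0.605 for miR-301, 0.670 for miR-301b and 1.11 for miR-454. Set among the 157 assays outside these 4, measured against the same means, they took places 55, 60, 78 and 134 from the most alike. In the second family the SD was 0.973 cycles for miR-148a, 0.972 for miR-148b and 0.804 for miR-152, at places 100, 105 and 74 beside 158 other assays. miR-130b, of the other family, stood closer to the mean of the 3 miR-148 family members (0.345 cycles, place 6 of 158). That mean is over 3 members and the within-family values are against means over 2, which vary more.

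The assays most like the miR-130 family mean were miR-331 (0.259 cycles), miR-140 (0.279) and miR-195 (0.282). Those most like the miR-148 family mean were miR-652 (0.271), miR-125b (0.303) and miR-26b (0.312). These lists were not stable. When a series was left out, 0 or 1 of the 3 assays stayed among the nearest 3, for either family.

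Other miRNAs on the card whose seed holds the letters GUGCA numbered 7, and 3 of them could be tested. miR-19a and miR-19b, members of the MYC-driven miR-17 clusters with the seed GUGCAAA, overlap the miR-130 seed by a shift of 1 base. Their Ct values ran from 15.9 to 20.6 cycles, and those of the members from 19.2 (miR-454) to 34.1 (miR-130a). miR-19a was at -1.34, 0.79 and 0.03 in series 1, 2 and 3, and miR-19b at 0.30, 0.96 and -1.05. The fitted changes were -0.18 (SE 0.53) and 0.07 (SE 0.52), both with a limma adjusted p of 0.99. The third tested relative, miR-519a, was determined in 5 samples at Ct 33.4 to 35.2, with a fitted change of 1.56 (SE 0.54, limma adjusted p = 0.856, unadjusted p = 0.0272). It is named after its value was seen. The median over the 3 was 0.07, and 0 passed an adjusted p of 0.05. Of the opposite arms of the member hairpins, 0 were on the card.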

How the data were processed

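miRNA levels were measured by TaqMan array cards in 3 control and 3 TruB1 knockdown samples of HEK-293FT cells, grouped by title. The deposited raw values are Ct, per the file headers, with undetermined wells marked. The authors' deposited normalized values are a ratio to U6, which was recovered as 2 to the power of mean U6 Ct minus assay Ct (largest log2 difference 6.8e-06). Threshold and baseline settings are not given in the sources used here. The log2 ratio was analysed with undetermined wells missing. An assay was tested with a Ct under 35 in at least 3 samples and at least 2 complete pairs. Two-sided tests used limma 3.58.1 (R 4.3.3, lmFit and eBayes) with series number as a block, since the deposited fold changes are formed within a series, per the file headers. Over 161 assays, samples of the same number deviated together (r = 0.416, 0.527 and 0.625). Between series 1 and 2, r was 0.249 (control 1 with knockdown 2) and 0.129 (control 2 with knockdown 1). It was negative between series 3 and either of the others. Deviations were taken from the mean of the 3 samples of a group and so sum to 0. Part of these negative values is therefore built in. The test was checked on simulated data with the same spread for every assay and no missing values. The changes added there were larger than any member's fitted change, so changes of the members' size were not checked.

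Members, lists and rules were chosen with earlier results of these data known. Named were the members, U6, other arms, miR-19a, miR-19b and the 3 assays most like each family. Seed relatives were found in the deposited target sequences, not through RefSeq as planned. Alternatives covered the block, the reference, undetermined wells, the Ct limit, the eBayes prior and each series left out. A Ct carries no count, and the number of samples limits the precision.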

Additional observations from a re-analysis of the deposited data

How the results depend on the processing

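No member tested passed an adjusted p of 0.05 in limma under any of the 12 alternatives (smallest 0.214). miR-130a was not tested with a Ct under 35 required in all 6 samples, without series 1 or without series 3. The count over all assays was 0 in 9 alternatives and ran from 0 to 6 with a series left out: without series 3, 6 of 175 assays (3.43%) passed, 0 of them members. Without the replicate block 0 of 189 passed, and the change of miR-130a reversed to 0.12. For members with all 3 pairs the fitted change is the same with and without the block, so its direction could not reverse. The smallest limma adjusted p over all assays was 0.999 without the block and 0.243 with it. Assays with an unadjusted p under 0.05 numbered 0 without the block and 10 with it. With undetermined wells at Ct 40, miR-130a reversed to 2.88, and miR-130b minus miR-130a to -2.68, since the well of control sample 2 then counts as a low level. On raw Ct, which carries the shift of all assays (-1.02), the family medians moved to -1.40 (miR-130 family) and -0.76 (miR-148 family), and miR-130b, miR-148a and miR-152 reversed to -0.71, -0.76 and -0.24. Of 22 member changes with a series left out 4 reversed: miR-130b to -0.11 and miR-148a to -0.17 without series 2, miR-301b to 0.20 without series 3 and miR-148a to -0.39 without series 1. Those fits ranged from -0.11 to 0.69 for miR-130b, -0.97 to 0.20 for miR-301b, -0.39 to 1.00 for miR-148a, -0.79 to -0.12 for miR-454, -0.65 to -0.40 for miR-301, -0.97 to -0.46 for miR-148b and 0.39 to 1.05 for miR-152. With a series left out, the family medians ran from -0.59 to 0.04 (miR-130 family) and from -0.39 to 0.56 (miR-148 family), and the median of all assays from -0.37 to 0.06. The order of levels moved for 0 to 2 members. The change in miR-454 minus miR-301 ran from -0.29 to 0.53 (-0.19 without series 2) and that in miR-148a minus miR-152 from -1.44 to 0.44. miR-148a minus miR-148b kept its direction, from 0.08 to 1.97. The change in miR-152 minus miR-148b ran from 0.94 to 1.53 and that in miR-130b minus miR-301b from 0.39 to 0.87. For these last 2 pairs all 3 series had the same sign, so leaving out a series could not reverse them. Of the 3 assays most like a family, 0 to 1 stayed. With the block, leaving out 1 sample of a pair gives the same change as leaving out the pair. The cause of these moves was not tested.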
